A study of Mus musculus with 12 samples.

Results

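Chemokine ligands are small secreted or membrane-anchored proteins that direct the movement of leukocytes, and 10 of the 24421 genes in the count table were examined here by their gene symbols: Cxcl5, Cxcl1, Cxcl2, Cxcl10, Cxcl16, Cx3cl1, Ccl2, Ccl7, Ccl5 and Ccl20. They were measured by RNA-seq in small mice cholangiocyte cells (SMCCs), a mouse cell line of bile duct epithelium, in 12 libraries. β-catenin was silenced with an siRNA (si-bcatenin) beside a control siRNA (siCTL), both transfected with RNAiMAX for 24 h. It was activated with a plasmid for its S45Y mutant (S45Y) beside an eGFP plasmid (eGFP), both transfected with Lipofectamine 3000 for 48 h. Each group had 3 libraries of the same cell line, and the labels do not say whether these came from separate cultures. The p-values therefore measure the spread between libraries, which may be technical.

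Chemokines are grouped by the cysteines near the start of the mature protein. In CXC ligands these cysteines are separated by a single residue, in CC ligands they are adjacent, and Cx3cl1 has a longer gap. CXC ligands such as Cxcl1, Cxcl2 and Cxcl5 act on Cxcr2 and draw neutrophils, whereas Ccl2 and Ccl7 act on Ccr2 and draw monocytes. Bile duct epithelium is known to release several of these proteins in injured liver, and many of their genes are known targets of NF-κB.

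Only a small part of each library came from these genes. The deposited values were raw read counts, with 221767 to 326686 counts per library in siCTL, 295677 to 313074 in si-bcatenin, 113481 to 122304 in eGFP and 91468 to 117419 in S45Y. Rn45s, the ribosomal RNA precursor, took 3.64% to 5.495% of counts in siCTL, 1.612% to 2.439% in si-bcatenin, 10.028% to 15.385% in eGFP and 10.214% to 15.035% in S45Y. Ctnnb1, which encodes β-catenin and shares 759 exonic bases with Ulk4 on the other strand, had 13, 38 and 28 counts in siCTL and 0, 11 and 3 in si-bcatenin, a log2 fold change of -2.54 (SE 0.55, edgeR adjusted p = 0.00491). With the plasmids it was counted 6, 11 and 10 times (eGFP) or 11, 4 and 18 times (S45Y), which did not differ past the threshold (edgeR adjusted p = 0.989). The biliary keratins Krt8, Krt18 and Krt19 had 589, 1150 and 365 counts over all libraries, whereas the epithelial marker Epcam, the chloride channel Cftr and the water channel Aqp1 had none.

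The stretch of coding sequence around the first cysteines is shown for the 4 members on which the results turn. It was located by the cysteine pattern of each gene's known class, so its spacing does not test the class. All 4 stretches lie in exon 2 of the annotated transcript (GENCODE M21, mm10). They are at chr5:90759712-90759750 on the plus strand for Cxcl5, chr11:70459112-70459150 on the minus strand for Cxcl16, chr8:94778036-94778080 on the plus strand for Cx3cl1 and chr11:82036491-82036526 on the plus strand for Ccl2. They are written 5′ to 3′ on the coding strand, with the cysteine codons in capitals.
Cxcl5: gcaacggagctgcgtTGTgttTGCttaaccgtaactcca
Cxcl16: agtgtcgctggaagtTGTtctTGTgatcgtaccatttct
Cx3cl1: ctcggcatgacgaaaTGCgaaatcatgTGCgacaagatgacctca
Ccl2: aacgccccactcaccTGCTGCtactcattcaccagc
The capitals are separated by 1 codon in Cxcl5 and Cxcl16 and by 3 codons in Cx3cl1, and they adjoin in Ccl2.

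The genes of the neutrophil-attracting ligands lie close together on chromosome 5 of mm10, all on the plus strand, with Cxcl5 at chr5:90759360-90761624, Cxcl1 at chr5:90891241-90893115 and Cxcl2 at chr5:90903871-90905938. Cxcl10 lies on the same chromosome at chr5:92346638-92348889 on the minus strand. Ccl2 (chr11:82035571-82037453) and Ccl7 (chr11:82045712-82047525) neighbour each other on the plus strand of chromosome 11, which also carries Ccl5 (chr11:83525778-83530518) and Cxcl16 (chr11:70453983-70459984) on the minus strand. Cx3cl1 (chr8:94772009-94782427) and Ccl20 (chr1:83116766-83119167) lie on the plus strands of their chromosomes. The exons of Cxcl16 overlap those of Zmynd15 on the opposite strand by 552 bases, and those of Cxcl10 overlap Art3 by 133 bases. Whether the counting used the strand is not given in the sources used here, so the counts of Cxcl16 and Cxcl10 are uncertain to that extent.

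Of the 10 members, 3 had more than 3 pooled counts in every group, namely Cx3cl1, Cxcl16 and Cxcl5. The limit of 3 counts, which is about what a count of 0 allows, corresponds to 3.55 CPM (the count divided by the group's total count and multiplied by 1000000) in siCTL, 3.26 in si-bcatenin, 8.47 in eGFP and 9.85 in S45Y. Ccl2 passed it in si-bcatenin and eGFP, and Ccl5 in siCTL, si-bcatenin and S45Y. Cxcl1, Cxcl10 and Ccl20 had counts without passing it in any group, and Cxcl2 and Ccl7 had no count in any library. The 10 genes together had 492 of 2424120 counts (0.0203%), of which Cx3cl1 held 47.0%, Cxcl16 27.4% and Cxcl5 15.2%. These shares are not corrected for transcript length, and the deeper siRNA libraries weigh most in them. Cxcl16 had more pooled counts than Cx3cl1 in eGFP (31 against 28) and S45Y (19 against 17). The median gene of the table had 3 counts over all 12 libraries.

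**Figure D1:**
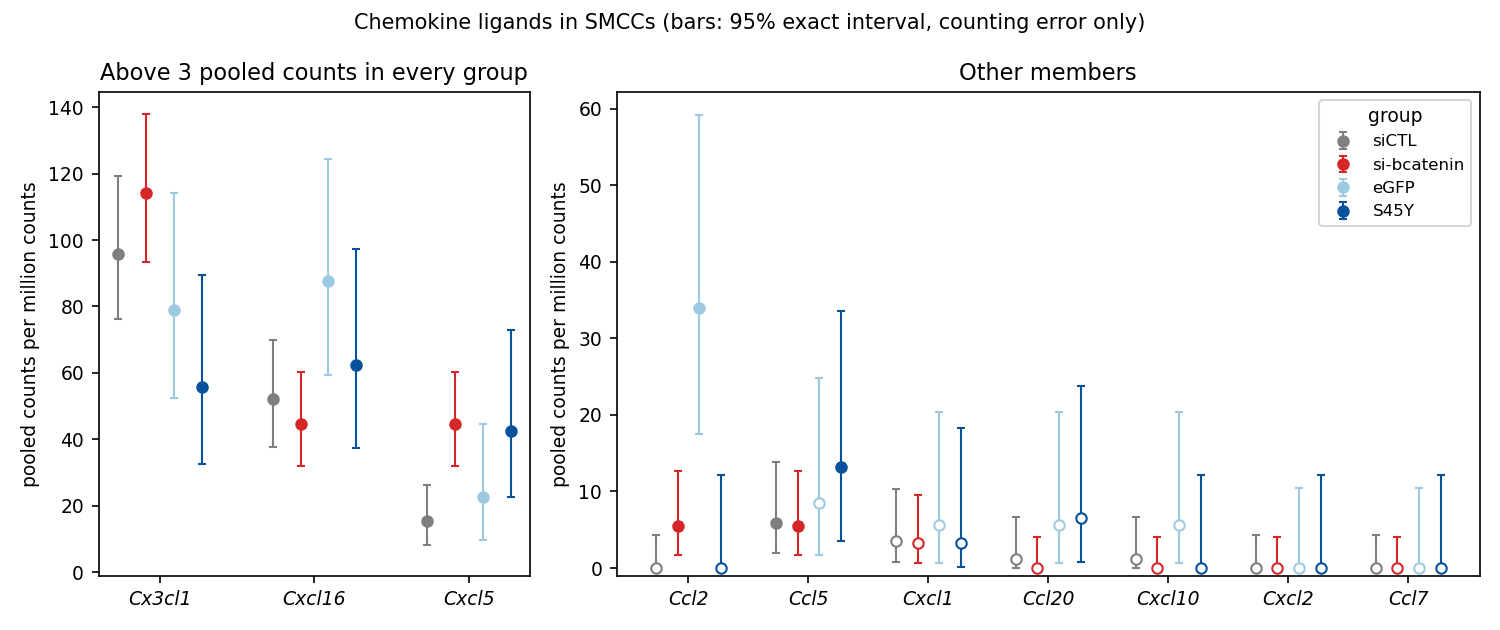
Counts of each chemokine gene summed over the 3 libraries of a group, as CPM of that group's total, on a linear axis. Bars are 95% exact (Clopper-Pearson) intervals, which cover counting error only and at 0 counts reach further than the limit of 3 counts; filled points are groups with more than 3 pooled counts and open points are not. Ccl2 in eGFP, at 33.9 CPM, is the highest value in the right panel.

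Among the neutrophil-attracting ligands, Cxcl5 was the only one with more than 3 counts in any library. It had 2, 7 and 4 counts in the siCTL libraries and 13, 12 and 16 in the si-bcatenin libraries. The plasmid libraries held 5, 3 and 0 (eGFP) or 2, 6 and 5 (S45Y). All si-bcatenin libraries were above all siCTL libraries in CPM, whereas eGFP and S45Y overlapped. Pooled, Cxcl5 stood at 15.4 CPM in siCTL (95% interval 8.20 to 26.3), 44.5 in si-bcatenin (32.0 to 60.4), 22.6 in eGFP (9.75 to 44.5) and 42.7 in S45Y (22.7 to 73.0).

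After scaling of the libraries by edgeR's TMM method, over the genes that passed its filter on low counts, the Cxcl5 level was 15.9 ± 6.83 CPM in siCTL and 49.6 ± 7.29 in si-bcatenin (SD, n = 3 each). The log2 fold change of silencing was 1.54 (SE 0.59, 95% interval 0.35 to 2.73). With edgeR's quasi-likelihood test the unadjusted p was 0.0125 and the p adjusted over 3484 genes was 0.206, so the difference did not pass the threshold of 0.05. Genes with an unadjusted p under 0.05 made up 12.5% of those tested, and Cxcl5 was at rank 211. DESeq2 gave a log2 fold change of 1.61 with an unadjusted p of 0.0355 and no adjusted p. The two-sided exact permutation test gave p = 0.1, the smallest that 3 libraries against 3 can give, and 15 such tests were made over members and comparisons. Cxcl5 reached the filter on low counts, which asks for about 10 counts in as many libraries as a group has, through the si-bcatenin libraries.

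In activation Cxcl5 was too low for the same filter. Without the filter its log2 fold change from eGFP to S45Y was 0.89 (SE 0.95, edgeR adjusted p = 0.861 over 12569 genes). The ratio of pooled CPM was 1.89 with a counting interval of 0.726 to 5.26, beside 2.89 (1.52 to 5.88) in silencing. The log2 change of silencing minus that of activation was 0.62 (SE 1.08, 95% interval -1.52 to 2.76, edgeR adjusted p = 0.948), and 0.4% of 3499 genes passed this test. Leaving out replicate 1 of eGFP turned this difference to -0.17. A difference between both changes of Cxcl5 was therefore not detected, and its interval was wide.

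The order of the Cxcl5 levels was si-bcatenin, S45Y, eGFP and siCTL, and every pair of neighbours in this order overlapped. The mean was 47.5 ± 21.6 CPM in S45Y and 25.0 ± 23.8 in eGFP (SD, n = 3 each). The genes with the most similar pattern over the 12 libraries, among 2996 compared, were the histone gene Hist1h2bb (Pearson's r = 0.905) and Igfbp4, which encodes an IGF-binding protein (0.882). These values of log2 CPM are descriptive, since the libraries share groups and depth. Cxcl5 itself had an r of 0.036 with the log2 library total.

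Marker genes of cholangiocytes and of other cell types were read beside the Cxcl5 difference. Over 12 marker genes of macrophages and other leukocytes, of which 2 could be tested and 0 were called by edgeR in silencing, the summed level was 97.9 to 168 CPM in the siCTL libraries and 169 to 204 in the si-bcatenin libraries. Cd14, a receptor part for bacterial lipopolysaccharide, had 26 pooled counts in siCTL and 70 in si-bcatenin, with a log2 fold change of 1.29 (SE 0.45, edgeR adjusted p = 0.153). Cd68, a lysosomal protein, had 57 and 65 (edgeR adjusted p = 0.966), so more of the higher sum lay in Cd14. Csf1r, a receptor of macrophages, had 21 and 31. Of the list, 7 genes had no count in any library, among them Ptprc, Adgre1, Itgam and Lyz2. Cholangiocyte markers summed to 969 to 1344 CPM in siCTL and 878 to 957 in si-bcatenin, which did not overlap. Of the 5 tested in silencing, 0 were called by edgeR (1.55% of all genes), and 2 had an unadjusted p under 0.05 (12.5% of all genes). These were Spp1, with a log2 fold change of -0.74 (edgeR unadjusted p = 0.00443, adjusted p = 0.126), and Krt18, with -0.39 (edgeR unadjusted p = 0.0307, adjusted p = 0.321). In bulk RNA, more cells of a type and more RNA per cell cannot be told apart, and the part of these markers or of the lower Rn45s share in the Cxcl5 difference was not tested.

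**Figure D2:**
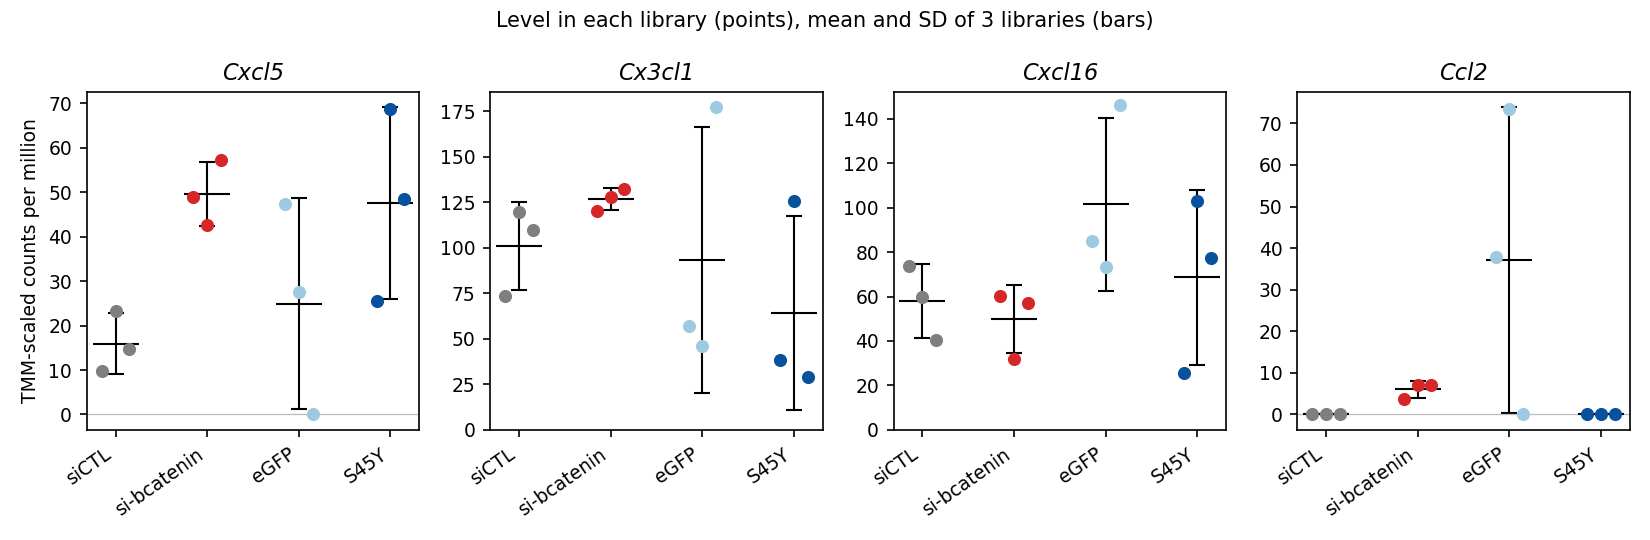
TMM-scaled CPM of Cxcl5, Cx3cl1, Cxcl16 and Ccl2 in each library (points) of the 4 groups, with the mean as a long dash and the SD over 3 libraries as bars. The si-bcatenin libraries stand above all siCTL libraries for Cxcl5, and Ccl2 is at 0 in all siCTL and S45Y libraries.

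Cxcl1 and Cxcl2, the close relatives of Cxcl5, were at or near 0. Cxcl1 had 1 count in each siCTL library, 0, 2 and 1 in si-bcatenin, 0, 0 and 2 in eGFP and 0, 0 and 1 in S45Y. Cxcl2 had no count in 12 libraries. No fold change is given for either gene, because every group was at or under 3 pooled counts. A search of RefSeq promoters (GRCm38.p6, the assembly of mm10, 250 bases before to 50 after the start) for an NF-κB motif, written GGG, 3 bases of any kind and TTCC, on both strands found 3 matches in each of these promoters, of which 2 overlap each other. The motif was present in 5.555% of 32851 promoters. Both sequences are shown because these genes had few or no counts and their promoters hold the motif, and the matches are in capitals. They are at chr5:90890995-90891294 for Cxcl1 and chr5:90903649-90903948 for Cxcl2, both on the plus strand.
Cxcl1: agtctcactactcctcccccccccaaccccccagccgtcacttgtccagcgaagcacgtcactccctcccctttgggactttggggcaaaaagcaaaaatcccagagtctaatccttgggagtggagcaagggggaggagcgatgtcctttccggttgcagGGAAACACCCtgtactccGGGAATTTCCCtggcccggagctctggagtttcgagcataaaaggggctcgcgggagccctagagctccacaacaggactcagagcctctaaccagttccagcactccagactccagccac
Cxcl2: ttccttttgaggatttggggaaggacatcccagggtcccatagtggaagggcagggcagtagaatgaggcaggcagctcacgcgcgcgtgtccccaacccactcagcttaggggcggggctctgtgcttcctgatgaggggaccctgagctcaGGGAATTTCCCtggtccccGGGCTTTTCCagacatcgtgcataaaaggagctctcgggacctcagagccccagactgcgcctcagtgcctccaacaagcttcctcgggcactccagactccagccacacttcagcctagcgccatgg
A match describes these letters only. Cxcl10 held 2 matches and Ccl20 held 1. The table had no entry for Cxcl5, Ccl2, Cxcl16, Ccl5 and Ccl7.

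Cxcl10, a ligand of Cxcr3 that is induced by interferon, had 1, 0 and 0 counts in siCTL and 0, 0 and 2 in eGFP, and none in si-bcatenin or S45Y. It was at or under 3 pooled counts in every group, whereas other genes induced by interferon were counted. Over 28 interferon-stimulated genes, the summed level was 226 to 266 CPM in siCTL, 142 to 183 in si-bcatenin, 735 to 1030 in eGFP and 616 to 995 in S45Y. Usp18, a protease that removes ISG15, rose from siCTL to eGFP by 1.67 on the log2 scale (edgeR adjusted p = 0.00189). Eif2ak2, a kinase activated by double-stranded RNA, rose by 1.97 (edgeR adjusted p = 0.00533). Of this list 3 genes were tested in that comparison, in which 16.9% of all genes were called, and the third, Ifi35, had a log2 change of 0.62 (edgeR adjusted p = 0.463). The most counted members were Usp18 with 220 counts and Ifi35 with 124.

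Cx3cl1 and Cxcl16 are made as membrane-anchored proteins that can be shed, and they act on Cx3cr1 and Cxcr6. Cx3cl1 had 15, 36 and 30 counts in siCTL and 32, 36 and 37 in si-bcatenin. After plasmid transfection it had 6, 5 and 17 (eGFP) or 3, 11 and 3 (S45Y). The groups overlapped in both comparisons in plain CPM. In TMM-scaled values the lowest si-bcatenin library (120.3 CPM) lay just above the highest siCTL library (119.9). The mean was 101 ± 24.2 in siCTL, 127 ± 6.17 in si-bcatenin, 64.4 ± 53.4 in S45Y and 93.4 ± 73.0 in eGFP (SD, n = 3 each). In the order of these means siCTL overlapped with eGFP, and eGFP with S45Y.

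The Cx3cl1 change on silencing was 0.28 on the log2 scale (SE 0.29, 95% interval -0.30 to 0.87, edgeR adjusted p = 0.778). It was 0.14 without replicate 1 of siCTL and 0.43 without replicate 2 of siCTL. The exact permutation test of its TMM-scaled log2 CPM gave p = 0.1, as it did for Cxcl5 and Ccl2. On activation it was -0.51 when genes with about 5 counts were let through (SE 0.63, edgeR adjusted p = 0.998 over 3073 genes). The difference of both changes was 0.79 (95% interval -0.53 to 2.11, edgeR adjusted p = 0.783). Among the members with a RefSeq promoter, Cx3cl1 was the only one without a match to this motif. Cxcl5 and Cxcl16, the others with more than 3 counts in every group, had no promoter entry, so level and motif cannot be compared. The promoter of Cx3cl1, at chr8:94771930-94772229 on the plus strand, is shown beside those of Cxcl1 and Cxcl2. The GENCODE start of Cx3cl1 is at 94772009, so most of this window lies within the annotated gene.
Cx3cl1: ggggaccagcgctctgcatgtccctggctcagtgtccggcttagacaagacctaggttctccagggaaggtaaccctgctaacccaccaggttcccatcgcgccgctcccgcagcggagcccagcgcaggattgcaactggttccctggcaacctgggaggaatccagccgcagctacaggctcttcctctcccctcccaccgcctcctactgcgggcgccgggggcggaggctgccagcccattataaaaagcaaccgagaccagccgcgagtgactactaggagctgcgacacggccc
The absence of a match says only that these letters are not in this window.

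Cxcl16 had 15, 18 and 11 counts in siCTL, 16, 9 and 16 in si-bcatenin, 9, 8 and 14 in eGFP and 2, 9 and 8 in S45Y. The levels overlapped between every treated group and its control. Scaled by TMM, they were 58.0 ± 16.9 and 49.8 ± 15.5 CPM in siCTL and si-bcatenin, and 101.6 ± 39.0 and 68.7 ± 39.5 in eGFP and S45Y (SD, n = 3 each). In the order eGFP, S45Y, siCTL and si-bcatenin, all neighbours overlapped. The change was -0.22 on the log2 scale on silencing (SE 0.44, 95% interval -1.12 to 0.68, edgeR adjusted p = 0.906). On activation it was -0.51 with genes of about 5 counts let through (SE 0.58, edgeR adjusted p = 0.998). Without replicate 2 of si-bcatenin the silencing change turned to 0.021. Zmynd15 on the opposite strand had 137, 147, 54 and 86 pooled counts in siCTL, si-bcatenin, eGFP and S45Y.

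Per kilobase of exon, the pooled level of Cx3cl1 was 24.4 CPM in siCTL and 29.0 in si-bcatenin, against 17.2 and 14.7 for Cxcl16 and 8.26 and 23.9 for Cxcl5. In eGFP it was 20.1 for Cx3cl1, 29.0 for Cxcl16, 12.1 for Cxcl5 and 29.8 for Ccl2. The 95% counting intervals of Ccl2 (15.4 to 52.0) and Cxcl16 (19.7 to 41.1) overlapped, and the Ccl2 counts came from 2 libraries. In S45Y the level was 22.9 for Cxcl5 (12.2 to 39.2), 20.6 for Cxcl16 (12.4 to 32.2) and 14.2 for Cx3cl1 (8.27 to 22.7).

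Ccl2, which draws monocytes, had 0 counts in all siCTL libraries, 1, 2 and 2 in si-bcatenin, 4, 8 and 0 in eGFP and 0 in all S45Y libraries. The counts of eGFP came from replicates 1 and 2, and replicate 3 overlapped with the libraries at 0. Pooled, eGFP had 12 counts, or 33.9 CPM (95% interval 17.5 to 59.2), and si-bcatenin had 5, or 5.43 CPM (1.76 to 12.7). Taken at the lower limit of its interval, eGFP stood at 4.93 times the CPM of 3 counts in siCTL and 1.78 times that in S45Y. The 95% intervals of 0 counts reach further, to 4.37 CPM in siCTL and 12.1 in S45Y. These ratios are therefore not strict lower bounds, and they cover counting error alone. Without replicate 2, eGFP had 4 counts, or 17.3 CPM (4.70 to 44.2), and the same ratios were 1.32 and 0.478, so the excess over S45Y was then not assured. Without replicate 3 they were 7.25 and 2.62. The interval of si-bcatenin includes 3.55 CPM, the level of 3 counts in siCTL, so no fold change is given.

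Ccl2 did not reach the filter on low counts in any comparison. The exact permutation test, two-sided, gave p = 0.4 for eGFP against S45Y, p = 0.4 for eGFP against siCTL and p = 0.1 for si-bcatenin against siCTL. When every gene with a count was tested, the edgeR adjusted p was 0.861 for S45Y against eGFP (unadjusted p = 0.0067). For eGFP against siCTL it was 0.0174, where 3.15% of 13222 genes passed. The latter fell to 0.00388 without replicate 3 of eGFP and rose to 0.370 without replicate 2 of eGFP. It was 0.0610 without replicate 1 of eGFP, 0.0777 and 0.0666 without replicates 2 and 3 of siCTL and 0.0425 without replicate 1 of siCTL, and DESeq2 gave an unadjusted p of 0.105. eGFP and siCTL differ in nucleic acid, reagent, hours and depth, which cannot be told apart.

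Ccl7, the neighbour of Ccl2, had no count in any library. Ccl5, which draws T cells, had 5, 0 and 0 counts in siCTL, 2, 3 and 0 in si-bcatenin, 1, 2 and 0 in eGFP and 0, 4 and 0 in S45Y. Its counts thus lay in a single library in siCTL and in S45Y, and the exact permutation test gave p = 1 in every comparison. Ccl20, a ligand of Ccr6, had 0, 0 and 1 counts in siCTL, 0, 2 and 0 in eGFP, 0, 0 and 2 in S45Y and none in si-bcatenin.

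In total, 3 of the 10 members could be tested with edgeR in silencing, none in activation and 2 (Cx3cl1 and Cxcl16) between eGFP and siCTL. At an adjusted p under 0.05 edgeR called 0 of them, beside 1.55% of 3484 genes in silencing, 0% of 1819 genes in activation and 16.9% of 2459 genes between the controls. At an unadjusted p under 0.05, edgeR and DESeq2 each counted 1 member in silencing (Cxcl5) and 0 in the other comparisons. All genes at that level made up 12.5% (edgeR) and 2.39% (DESeq2) in silencing, 5.88% and 1.32% in activation, and 29.2% and 7.96% between the controls. With an added limit of 1.5 on the log2 change, Cxcl5 counted, beside 0.689% of genes in silencing. Since Cxcl5 reached the filter through the group in which it was higher, nothing is read from its count against these shares. The rule of no overlap took genes with more than 3 pooled counts in a group, which in silencing were 5 members. In plain CPM, 2 of them (Cxcl5 and Ccl2) did not overlap between siCTL and si-bcatenin, both higher in si-bcatenin. All genes that did so in that direction made up 5.85% of 10014. With TMM-scaled values Cx3cl1 joined them, making 3, beside 6.26% of genes. Ccl2 passed the limit only through si-bcatenin, so nothing is read from these counts of members against the shares. No member was free of overlap between eGFP and S45Y (9.96% of 8025 genes) or between siCTL and eGFP (18.7% of 9481 genes). Between siCTL and eGFP, the log2 change was 0.84 for Cxcl16 (SE 0.49, edgeR adjusted p = 0.258) and -0.13 for Cx3cl1 (SE 0.46, edgeR adjusted p = 0.885). Without replicate 3 of eGFP these values were 0.44 and -1.01, and without replicate 1 or 2 of eGFP that of Cx3cl1 turned to 0.077 or 0.16.

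**Figure D3:**
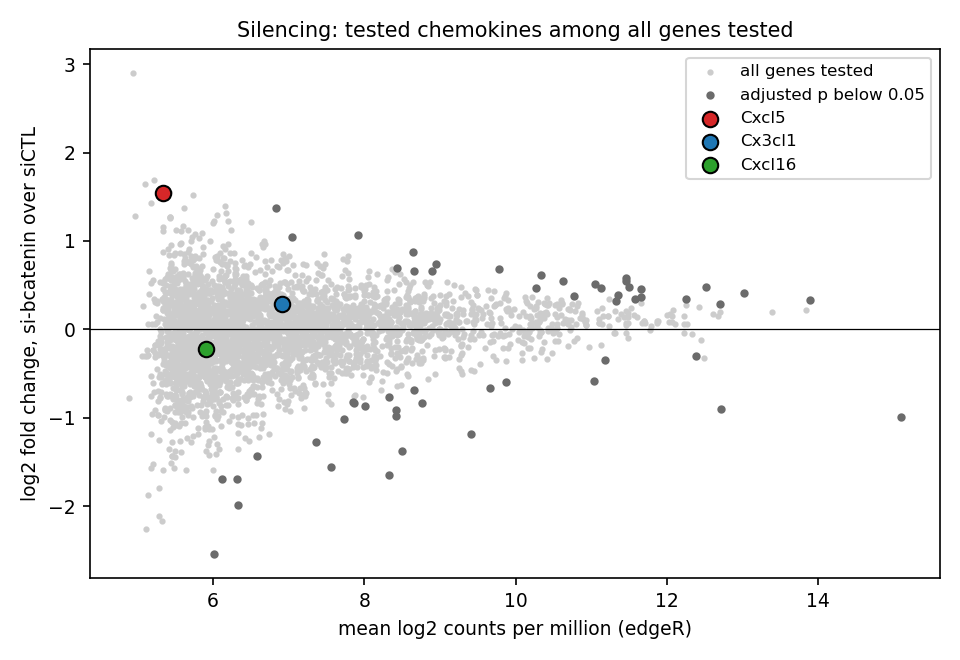
Log2 fold change of si-bcatenin over siCTL against the mean log2 CPM for the 3484 genes tested. Dark points are the genes with an edgeR adjusted p under 0.05, and Cxcl5 (1.54), Cx3cl1 (0.28) and Cxcl16 (-0.22) are marked; Cxcl5 lies at the low end of the level axis, where the scatter of genes is wide.

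**Figure D4:**
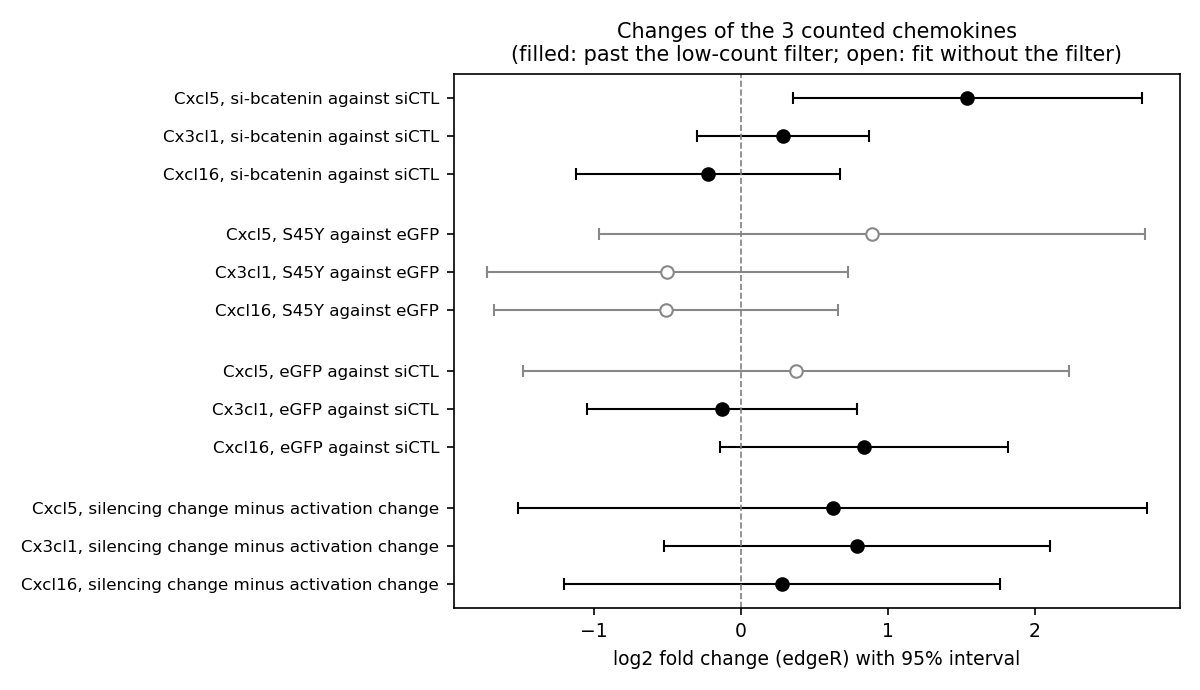
Log2 fold changes of Cxcl5, Cx3cl1 and Cxcl16 by edgeR with 95% intervals, for silencing, activation, eGFP against siCTL and the difference of silencing and activation. Open points are from a fit without the filter on low counts; of the 12 intervals, 11 include 0, and that of Cxcl5 in silencing, a gene that reached the filter through the si-bcatenin libraries and had an adjusted p of 0.206, does not.

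Other genes of chemokine signalling were also sparse. Of 28 further chemokine ligands, 14 had no count, 6 had more than 3 pooled counts in a group and 0 could be tested. The most counted were Cxcl17, a mucosal chemokine, with 24, 38, 9 and 16 pooled counts in siCTL, si-bcatenin, eGFP and S45Y, and Ccl25, a ligand of Ccr9, with 14, 17, 2 and 1. Of 22 receptors, 12 had no count, and the most counted were Ccr10 with 237 counts in all and Ackr4, an atypical receptor that removes chemokines, with 92. Some receptors of the members, looked up after the values were seen, were at 0 for Cxcr2, Ccr2 and Cxcr3, at 3 counts for Cx3cr1, 2 for Ccr6 and 77 for Cxcr6. With edgeR, 2, 1 and 1 receptors were tested in silencing, activation and between siCTL and eGFP, and 0 were called. Called genes made up 1.55%, 0% and 16.9% of all genes there. Only 1 receptor (Ccr10, between siCTL and eGFP) had an unadjusted p under 0.05, as had 29.2% of all genes in that comparison.

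NF-κB pathway genes had 836 counts over 26 genes, led by the subunit gene Nfkb2 with 126 and Tnip1, which encodes an inhibitor of the pathway, with 117. Of these, 2 were tested in silencing and 1 in each other comparison, and 0 were called by edgeR, nor did any pass at an unadjusted p under 0.05. In silencing, activation and between the controls, 1.55%, 0% and 16.9% of all genes were called. At the unadjusted level the shares were 12.5%, 5.88% and 29.2%. With so few genes tested, nothing is read from the 0. In silencing the log2 change was 0.066 for Nfkb2 and -0.59 for Tnip1. Their summed level was 236 to 321 CPM in siCTL and 298 to 325 in si-bcatenin, which overlapped, and 442 to 651 in eGFP and 397 to 520 in S45Y, which overlapped too.

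Cholangiocyte markers summed to 1398 to 2020 CPM in eGFP and 1596 to 2052 in S45Y, which overlapped. The most counted were Krt18 and Spp1, a secreted phosphoprotein, with 609 counts. Between siCTL and eGFP, Krt8 rose by 1.14 and Krt18 by 0.76 on the log2 scale (edgeR adjusted p = 0.00058 and 0.00162), 2 of 5 tested, beside 16.9% of all genes called. The other log2 changes were 0.36 for Krt19, 0.36 for Spp1 and -0.23 for Slc4a2, a bicarbonate exchanger (edgeR adjusted p = 0.488, 0.369 and 0.824). Fibroblast and stellate markers were led by the cytoskeletal genes Vim with 384 counts and Acta2 with 180, and both were tested between siCTL and eGFP. Vim rose by 0.90 (edgeR adjusted p = 0.0209), and the log2 change of Acta2 was -0.60 (edgeR adjusted p = 0.493). Of the hepatocyte list, which had 100 counts in all, Apob had 42 and Hnf4a 35, and Alb and Ttr had none. At an adjusted p under 0.05, edgeR called no gene of these lists in silencing or activation, beside 1.55% and 0% of all genes. At an unadjusted p under 0.05 it counted Spp1, Krt18 and Cd14 in silencing, beside 12.5% of all genes, and 0 genes in activation, beside 5.88%.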

How the data were processed

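RNA of SMCCs was sequenced in 12 libraries, 3 per group. The authors trimmed reads with Trimmomatic 0.38, aligned them with HISAT2 2.1.0 to mm10 and counted them per gene with HTSeq 0.11.2, per the labels. The deposited values are raw counts without normalization for 24421 gene symbols. The annotation, read type and strand setting are not given in the sources used here. Groups were taken from the sample labels, and every library was used.

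The 10 genes, the gene lists and the tests were chosen with earlier results of these data known. Tests used edgeR 4.0.16 (R 4.3.3). For each comparison of 6 libraries, low genes were removed by filterByExpr (at least 10 counts, and 15 in total), and libraries were scaled by TMM and genes tested by quasi-likelihood, with Benjamini-Hochberg adjustment over all genes tested. The difference of changes was tested in a fit of all 12 libraries. TMM-scaled CPM were computed over all 12 libraries, relative to the counts of genes passing the filter. Exact permutation tests, two-sided, compared log2 CPM (prior count 2) of single genes. Up to 3 counts were taken as the limit of a count of 0, and a fold change was left out when neither group exceeded it. It was also left out for Ccl2 in silencing, where the interval included that limit, and none is given for Ccl5. Intervals are exact at 95% and cover counting error only.

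Besides the 10 members, the genes named are those of the lists with an adjusted p under 0.05, the 2 most counted of each list, and the 3 most like Cxcl5, of which 1 is not reported here; some receptors of members, Ctnnb1, Rn45s, overlapping genes, Krt19, Slc4a2, Csf1r and absent markers were named beside this rule. Gene positions came from GENCODE M21 (mm10) and promoters from RefSeq. Alternatives were DESeq2 1.42.0, RLE size factors, other filters, a single fit of 12 libraries, the replicate number as a block, another call rule, another scaling and each library left out. Scripts were first tested on simulated counts. Library totals of 91468 to 326686 limit the precision.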

Additional observations from a re-analysis of the deposited data

How the results depend on the processing

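The log2 change of Cxcl5 on silencing kept its sign under 12 alternatives, between 1.35 and 1.93, and its edgeR or DESeq2 adjusted p, where given, stayed between 0.207 and 0.500. Without replicate 3 of si-bcatenin its unadjusted p by edgeR was 0.0583. By the rule of an unadjusted p of 0.05 or less and a log2 change of at least 1.5 in size, 1 member (Cxcl5) counted in silencing, beside 0.689% of genes tested. Its change was under that size without replicate 1 or 3 of siCTL (1.35 and 1.46) and without replicate 3 of si-bcatenin (1.44), so it would not count there. Without the filter on low counts 1 member (Ccl2) was called by edgeR between siCTL and eGFP, beside 3.15% of 13222 genes. Likewise 1 was called without replicate 3 of eGFP and 1 without replicate 1 of siCTL, in fits added after seeing the data. The share of all genes is not given for those fits. Leaving out any other library there left 0. With 1 library left out, the members that did not overlap between siCTL and si-bcatenin numbered 1 to 3, and leaving out replicate 2 or 3 of si-bcatenin gave 1. TMM scaling, also added after seeing the data, gave 3. Between eGFP and S45Y they numbered 0 to 1, and between siCTL and eGFP 0 to 3, the latter without replicate 3 of eGFP. With all libraries, 12.8%, 9.96% and 18.7% of all genes did not overlap in these 3 comparisons, in either direction. Such shares are not given with a library left out, so nothing is read from these counts of members. Leaving out 1 library moved the change of Cxcl16 on silencing between -0.43 and 0.021, that of Cx3cl1 from siCTL to eGFP between -1.01 and 0.16, and the Cxcl5 difference of silencing and activation between -0.17 and 1.15. The cause was not tested. With the replicate block the Cxcl5 change was 1.57 (edgeR adjusted p = 0.245) and the difference of changes 0.54, and the block changed no call. In their deviations from the group means, libraries with the same number correlated between -0.0507 and 0.0271. With so few counts per gene this cannot settle whether they were paired. At these depths, 5 of the 10 members were at or under 3 pooled counts in every group, and 2 of these had no count.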
